A study of Plutella xylostella with 12 samples.

Results

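A set of 134 genes with more than a single annotated exon stood far higher in male than in female larvae of the diamondback moth, Plutella xylostella, a pest of cabbage crops, at 25 °C. The set was chosen on that difference. A member had to carry a locus identifier, have 2 or more exons, average at least 20 reads per 1000000 gene reads (CPM) over the 3 male 25 °C libraries, and reach at least 16 times the female 25 °C mean after 0.05 CPM was added to the latter. Every male 25 °C library also had to lie above every female one. The tables list 19364 features, of which 18895 are genes with locus identifiers and 16393 of these have 2 or more exons. Of 3603 such multi-exon genes that averaged at least 20 CPM in male 25 °C larvae, 134 met the whole rule, which is 3.72%. The same rule without the exon limit took in 29 genes with a single exon, which are not members. The sex difference at 25 °C is therefore a description here and carries no test.

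The libraries form 4 groups of 3: female 10 °C, male 10 °C, female 25 °C (replicates numbered 1, 2 and 4) and male 25 °C. Each library is poly(A) RNA from whole bodies of 8 pooled larvae of a laboratory population fed on cabbage. Larvae of every group lived at 25 °C up to the start of the third instar. They then went on to the middle of the fourth instar at 10 °C or still at 25 °C. Libraries held from 10183278 to 30106219 gene reads, and 3 reads in a library, taken as the floor for a gene with 0 reads, equal 0.0996 to 0.295 CPM. These floors reflect counting error alone.

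In moths the female carries the unlike sex chromosomes (ZW) and the male 2 Z chromosomes, and sex is also visible inside the larva, where the gonads grow during the last instars. In male larvae the developing testis holds spermatocytes, cells that transcribe a large set of genes little used by other tissues. A gene with introns is first copied whole, and splicing then joins its exons, so reads that span an exon-exon junction come from spliced transcripts. Reads inside an annotated intron show no such joining, and the read class does not tell what kind of transcript they come from. None of the 134 members has a product name or a symbol other than its identifier in the tables used, and 108 of them were found in a gene table of another assembly. No marker gene of testis or ovary could be matched by name, so the tissue behind the members was not tested. In whole bodies, fewer cells of a type and less RNA per cell cannot be told apart.

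The 10 °C libraries did not sort by their sex labels in these genes. Female-labelled 10 °C replicate 3 held the members at a high level and female-labelled replicate 2 at an intermediate one. The library labelled male 10 °C replicate 3 held them near 0. Summed over the 134 members, the level was 132, 2145 and 5542 CPM in the female-labelled 10 °C replicates 1, 2 and 3, and 5400, 5670 and 198 CPM in the male-labelled 10 °C replicates 1, 2 and 3. At 25 °C the sums were 90.3, 343 and 83.2 CPM in females and 7934, 8531 and 8277 CPM in males. The sexes were thus far apart at 25 °C by the choice of members, while at 10 °C the ranges of the groups overlapped. A gene outside the set, the storage protein gene PxSP1 (LOC105388119), whose product insect fat body makes in quantity before metamorphosis, was read in the same libraries after the members had been seen. It stood at 7322, 10358 and 2378 CPM in female and at 883, 551 and 878 CPM in male 25 °C libraries, which do not overlap. In the 10 °C libraries it stood at 6228, 7338 and 1148 CPM under the female label and at 2943, 1237 and 3971 CPM under the male label. Female-labelled replicate 2 was thus high in PxSP1 as well as raised in the members, while female-labelled replicate 3 was low in PxSP1 and male-labelled replicate 3 was the highest of its label. Male-labelled replicate 1, at 2943 CPM, lay above the lowest female 25 °C library in PxSP1 and also held the members at a high level. Comparisons of male with female at 10 °C are given below for all libraries. They are also given with female-labelled replicates 2 and 3 and male-labelled replicate 3 each left out in turn. Each library keeps its deposited label.

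**Figure D1:**
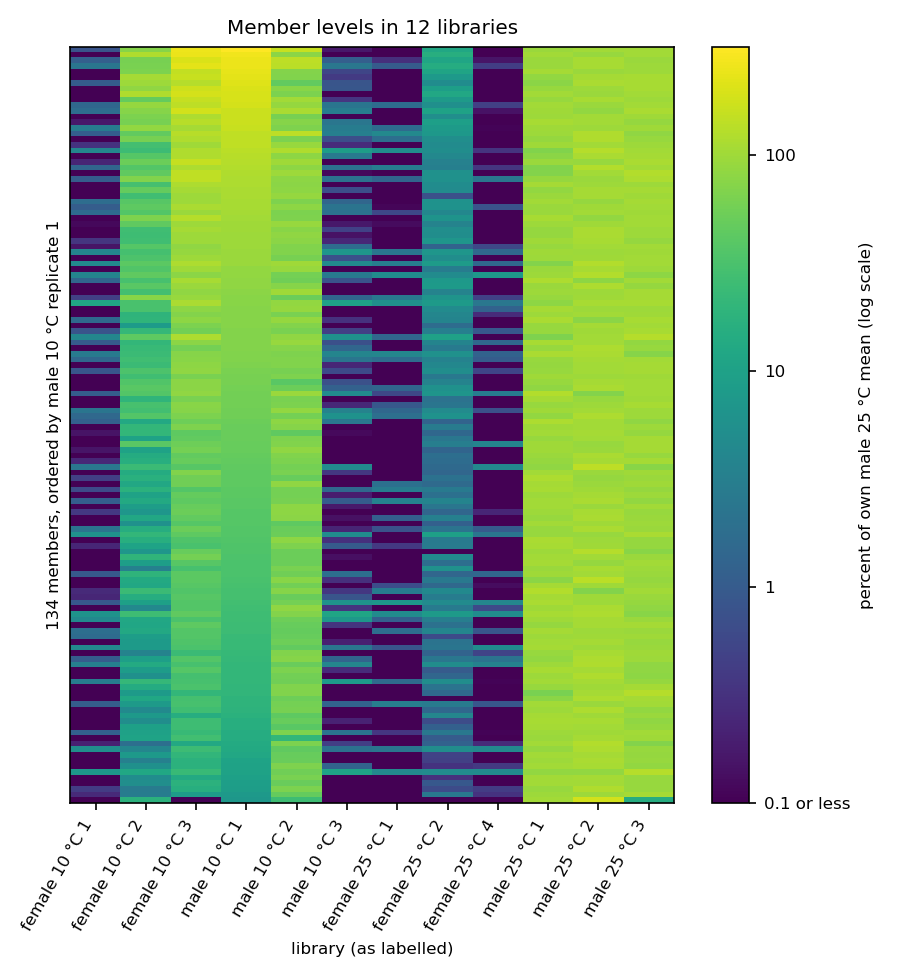
Level of each of the 134 members (rows) in each of the 12 libraries (columns, named as labelled), as a percent of the member's own mean over the 3 male 25 °C libraries, on a log10 colour scale. Rows are ordered by male 10 °C replicate 1. The columns of female 10 °C replicate 1, male 10 °C replicate 3 and female 25 °C replicates 1 and 4 are mostly dark. That of female 25 °C replicate 2 is of middle shade (median 3.59%), and those of female 10 °C replicates 2 and 3 are brighter.

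Levels in male 25 °C larvae ran from 20.2 to 894 CPM, with a median of 38.6 CPM, and 16 members reached 100 CPM. By CPM the leading member was LOC105380254 (scaffold NW_011952040, 177511 to 244386, plus strand, 19 exons). It stood at 758, 774 and 1150 CPM in the male 25 °C libraries and at 40.3, 43.3 and 43.0 CPM in the female ones. Its reads were nearly all intronic and are taken up with the read classes. LOC105383512 (NW_011952092, 31967 to 34511, plus strand, 3 exons) had 255, 325 and 276 CPM in males and 0.283, 14.8 and 0 CPM in females. LOC105388767 (NW_011952231, 132560 to 144022, minus strand, 7 exons) had 288, 293 and 245 CPM in males against 0, 4.07 and 0.222 CPM in females. All male values of both genes lay far above the female ones, and among the females replicate 2 was the high one.

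The next members in this order were LOC105398810 (222 ± 4.72 CPM, SD, n = 3), LOC105394756 (208 ± 6.36 CPM), LOC105392012 (198 ± 42.4 CPM), LOC105380495 (167 ± 15.01 CPM), LOC105391436 (149 ± 3.54 CPM) and LOC105391626 (138 ± 6.88 CPM). LOC105389469 (120 ± 11.3 CPM), LOC105391432 (115 ± 2.59 CPM) and LOC105391943 (113 ± 8.31 CPM) completed the first 12. The male 25 °C libraries gave close values for most members: the coefficient of variation had a median of 9.91% and passed 30% for 6 of them. The widest was LOC105390071 (83.0%), at 31.4, 54.0 and 4.39 CPM in males, of whose reads 0.921% mapped uniquely, so its level is uncertain.

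CPM counts reads without regard to gene length, and the order changed when exon length was taken into account. On the deposited TPM scale, which rests on exon reads per exon length, LOC105380495 led in male 25 °C larvae with 192 ± 16.1 TPM (SD, n = 3). LOC105391943 followed with 182 ± 12.8 TPM, LOC105397331 with 165 ± 8.07 TPM and LOC105383512 with 164 ± 19.5 TPM. LOC105380254, first by CPM, ranked 127 by TPM at 6.13 ± 0.421 TPM, and LOC105394756 and LOC105392012 were listed at 0 TPM. Neighbours in this order of the leading 4 overlapped within their SDs.

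The limits of the rule cut through a continuous range. Just inside the level limit were LOC105380540 (20.2 CPM) and LOC105392121 (20.6 CPM), and just outside were LOC105393866 (19.5 CPM) and LOC105380039 (19.4 CPM). Just inside the ratio limit were LOC105392012 and LOC105384157, both at 16.7, and just outside were LOC105381378 and LOC105384302, both at 15.4. A further 3 genes met the level and ratio limits but had male and female libraries that overlapped. With CPM scaled by trimmed mean of M-values (TMM) factors the rule gave 175 genes, including all 134.

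In female 25 °C larvae the members were near the floor in replicates 1 and 4 and above it in replicate 2. The number of members with 0 reads was 90, 3 and 81 in replicates 1, 2 and 4, and 3 members had 0 reads in all of them. As a percent of each member's own male 25 °C mean, the median was 0% in replicates 1 and 4 and 3.59% in replicate 2. Replicate 2 was the highest female library for 122 of 134 members. The order thus held for nearly all members, but the share of all genes that were highest in replicate 2 was not counted. Replicate 2 was also the deepest female 25 °C library, with 15719846 gene reads against 10616570 in replicate 1 and 13510177 in replicate 4.

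At 10 °C the median member stood at 0.101%, 20.9% and 58.6% of its male 25 °C mean in the female-labelled replicates 1, 2 and 3. In the male-labelled replicates 1, 2 and 3 it stood at 51.1%, 66.3% and 0.325%. The library labelled male 10 °C replicate 3 lay below those labelled female replicates 2 and 3 for 133 of 134 members. The library labelled female 10 °C replicate 1 lay below its fellow females for 132. The share of all genes that showed these orders was not counted. The percentages of the male 25 °C mean depend on the scaling. By CPM the median of 14394 genes in the 10 °C libraries lay 0.38 to 1.20 log2 units above the male 25 °C level. With TMM factors it lay 0.06 to 0.11 above it. On the TMM scale the members' medians were 0.0659%, 9.52% and 31.9% in the libraries labelled female and 31.7%, 52.6% and 0.181% in those labelled male. On both scales the medians of female-labelled replicate 3 and male-labelled replicate 1 lay close together. The 29 single-exon genes chosen by the same rule had CPM medians of 0%, 13.9% and 50.9% in the libraries labelled female and 37.0%, 74.7% and 0% in those labelled male.

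**Figure D2:**
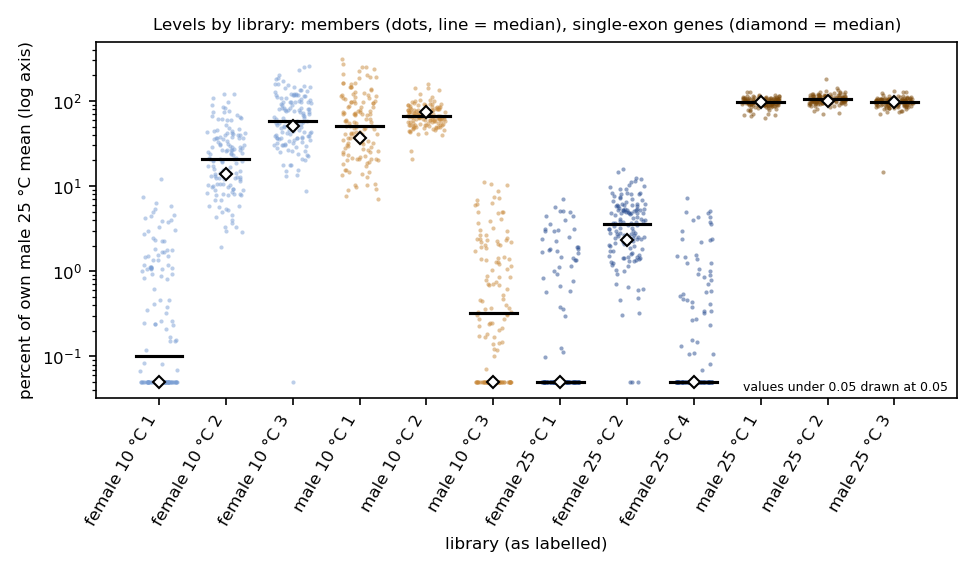
Levels of the members in each library as labelled, as a percent of each member's own male 25 °C mean on a log axis; each point is 1 gene, lines are medians, diamonds are medians of the 29 single-exon genes, and values under 0.05% are drawn at 0.05%. The library labelled female 10 °C replicate 3 lies with male 10 °C replicates 1 and 2, and that labelled female 10 °C replicate 2 lies below them (median 20.9%). The library labelled male 10 °C replicate 3 lies with female 10 °C replicate 1.

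Single members show the same order of libraries. LOC105391436 (NW_011952343, 153975 to 158859, plus strand, 8 exons) had 0.178, 65.9 and 145 CPM in the female-labelled 10 °C replicates 1, 2 and 3, and 151, 136 and 0.252 CPM in those labelled male 10 °C. Its male 25 °C values were 145, 150 and 152 CPM, so by CPM 3 of the 10 °C libraries, 1 of them labelled female, reached about the male 25 °C level. With TMM factors these 3, in the order given, stood at 52.7%, 62.5% and 72.3% of it. LOC105389469 (NW_011952257, 510481 to 513748, minus strand, 7 exons) had 0.296, 19.0 and 58.1 CPM in the libraries labelled female and 55.4, 76.8 and 0.084 CPM in those labelled male. Here every 10 °C library lay below the male 25 °C libraries, which had 107, 127 and 126 CPM.

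Some members stood above the rest in the libraries where the set was low. The highest in the library labelled female 10 °C replicate 1 were LOC105387751 at 12.1%, LOC105380254 at 7.35%, LOC105392012 at 6.34% and LOC105389897 at 5.91% of their male 25 °C means. In the library labelled male 10 °C replicate 3 they were LOC105392012 at 11.1%, LOC105380254 at 10.7%, LOC105387751 at 10.2% and LOC105388675 at 8.80%. LOC105387751, LOC105380254 and LOC105392012 stood in both lists. The reads of LOC105380254 in these libraries were mostly exonic, unlike those in male 25 °C larvae, with 59.3 CPM of exon reads in the former library and 89.1 CPM in the latter. Of the 134 members, 62 had 0 reads in the former library and 44 in the latter.

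Setting male against female at 10 °C was the single contrast of the sexes between libraries that the rule did not use. The fit took its spread from all 12 libraries, those of the rule included. By edgeR's quasi-likelihood test, 0 of 15027 genes had a Benjamini-Hochberg adjusted p below 0.05, so the share called higher in males was 0%, and 120 genes had an unadjusted p below 0.05. All 134 members were tested, of which 0 were called and 0 had an unadjusted p below 0.05. DESeq2 called 0 of 14988 genes (0%), with 214 genes and 1 member at an unadjusted p below 0.05. The median log2 difference, male minus female, was 1.02 over the members and 0.03 over all tested genes. It was positive for 134 members. That number was 118 when replicate 1 of either sex at 10 °C was left out, and 96 when male-labelled replicate 2 was. A fit of the 6 libraries of 10 °C alone, which used none of the rule's libraries, called 0 of 14583 genes. Its median log2 difference over the members was 1.04.

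No member had every library labelled male 10 °C above every library labelled female 10 °C, an order that 0.646% of all tested genes showed. The smallest unadjusted p-values belonged to LOC105388269, with a log2 difference of 2.90 ± 1.43 (SE), and LOC105383849, with 2.74 ± 1.40 (edgeR adjusted p = 0.9999 for both). LOC105388269 stood at 0.118, 1.08 and 7.27 CPM in the libraries labelled female 10 °C and at 7.81, 36.4 and 0.252 CPM in those labelled male. The lowest male-labelled library lay between the female-labelled values, and the groups overlapped. Leaving out libraries moved the members' median difference: it was 0.79 when female-labelled replicate 2 was left out, 2.59 when female-labelled replicate 3 was, 1.59 when male-labelled replicate 3 was, and 3.15 without both. Without both of the latter, 0 members were called (lowest edgeR adjusted p = 0.418). An unadjusted p below 0.05 was then found for 76 members and for 898 of 15353 genes (5.85%). Those libraries were doubted on their levels in the members themselves, so this count supports nothing. Leaving out female-labelled replicate 1 gave 0.46 and leaving out male-labelled replicate 2 gave 0.26, with 0 members called in either case.

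The 4 libraries of 10 °C that held the members did not hold them in equal measure. In male 10 °C replicate 2 the members were scaled down almost evenly: the level at the 90th percentile of members, as a percent of the male 25 °C mean, was 1.88 times that at the 10th. In male 10 °C replicate 1 this ratio was 10.4, in the library labelled female 10 °C replicate 2 it was 10.9, and in that labelled female 10 °C replicate 3 it was 5.72. A ratio within a library does not depend on scaling. Over 3808 other locus-identified genes of at least 20 CPM in male 25 °C larvae the ratios were 2.59, 8.30, 17.3 and 6.47 in the same order, so male 10 °C replicate 2 was the most even library for other genes too.

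Some members lay above and others far below their male 25 °C level in the same library. In male 10 °C replicate 1, LOC105388982 (NW_011952238, 408127 to 412795, minus strand, 8 exons) reached 158 CPM, against 47.1, 52.0 and 52.0 CPM in the male 25 °C libraries. It had 0.415, 37.1 and 130 CPM in the libraries labelled female 10 °C and 80.4 and 0.084 CPM in male 10 °C replicates 2 and 3. By CPM it was at 314% of its male 25 °C mean in male 10 °C replicate 1 and at 259% in the library labelled female 10 °C replicate 3, and with TMM factors at 195% and 140%. LOC105393560 (270%), LOC105382105 (254%), LOC105398110 (250%) and LOC105385457 (236%) came next in male 10 °C replicate 1. These and the following low members were picked after their values were seen.

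At the other end, LOC105383849 (NW_011952099, 420473 to 422503, plus strand, 3 exons) had 1.76 CPM in male 10 °C replicate 1, against 22.5, 21.99 and 24.4 CPM at 25 °C in males. It had 0.059, 0.687 and 1.99 CPM in the libraries labelled female 10 °C, and 10.8 and 0 CPM in male 10 °C replicates 2 and 3. This is 7.66% of its male 25 °C mean in male 10 °C replicate 1 and 47.1% in replicate 2. LOC105380495, the leading member by TPM, stood at 9.63% and 63.3% in these libraries, and LOC105384472 at 10.7% and 49.8%.

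Members that were high in male 10 °C replicate 1 were also high in the library labelled female 10 °C replicate 3. In the former 32 members, and in the latter 33, lay above their male 25 °C mean by CPM, of which 28 were common to both. With TMM factors the numbers were 14 and 5. Over the 3808 other genes the median level by CPM was 94.4% in the former and 104% in the latter library. Levels above the male 25 °C mean were thus not particular to members, and the share of other genes above it was not counted. The members were grouped by their level in male 10 °C replicate 1, a grouping made after the values were seen. The 32 above 100% had medians of 131% in the library labelled female 10 °C replicate 3, 59.995% in that labelled female 10 °C replicate 2 and 80.1% in male 10 °C replicate 2. The 72 between 25% and 100% had medians of 58.2%, 20.5% and 66.1% in the same libraries, and the 30 below 25% had 25.3%, 8.01% and 53.9%. In female 25 °C replicate 2 the medians of the 3 classes were 6.06%, 3.18% and 1.37%, so the order of the classes was the same there, at a level far lower.

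**Figure D3:**
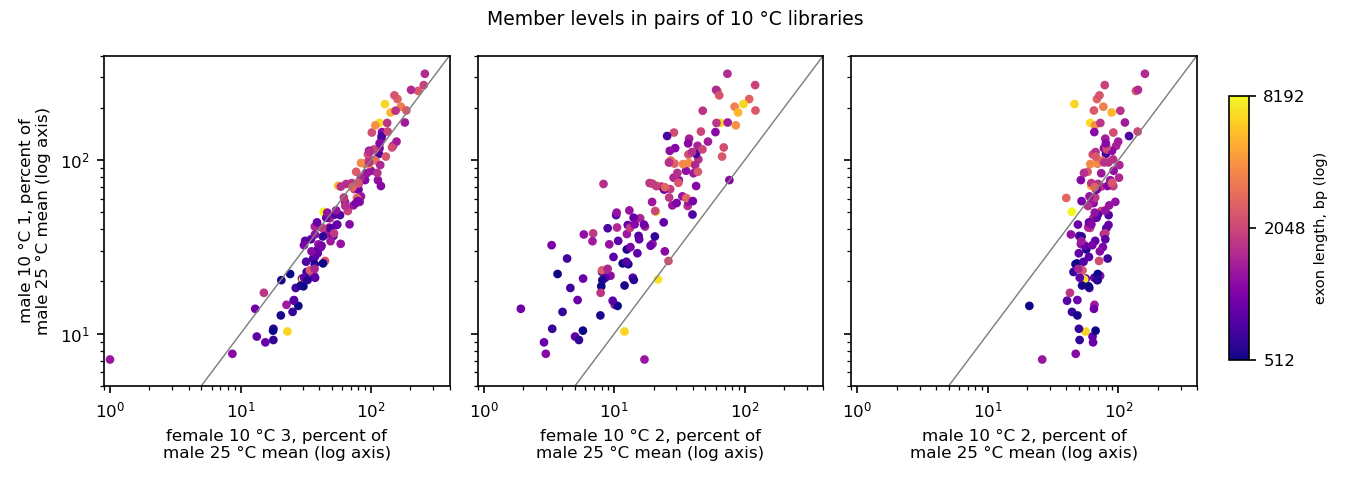
Level of each member in male 10 °C replicate 1 (vertical, percent of its male 25 °C mean, log axis) against its level in 3 other 10 °C libraries as labelled; colour gives exon length, the line marks equality, and LOC105390071, at 0 reads in the library labelled female 10 °C replicate 3, is drawn at 1%. The points lie along a line against the library labelled female 10 °C replicate 3 and stand nearly upright against male 10 °C replicate 2, whose levels span far less.

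Across the 134 members, log ratios to male 25 °C libraries in male 10 °C replicate 1 and in the library labelled female 10 °C replicate 3 had a Pearson r of 0.92. A different male 25 °C library served as the denominator on each side. For male 10 °C replicate 1 with the library labelled female 10 °C replicate 2 r was 0.85, and with male 10 °C replicate 2 it was 0.58. Over the 3808 other genes the same values were 0.76, 0.70 and 0.42. These are correlations across genes, which are not independent replicates, and they describe the libraries without a test.

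The high and low members also differed in length. Members above 100% in male 10 °C replicate 1 had a median exon length of 1853.5 bp, those between 25% and 100% had 1244 bp and those below 25% had 824 bp. In that library the 46 members with less than 1000 bp of exon had a median of 25.8% and the 30 with 2000 bp or more had 102%. Other genes split the same way, with 47.7% for 939 short and 131% for 1506 long genes. Spearman's rho between exon length and level was 0.60 for members and 0.47 for other genes in male 10 °C replicate 1, and 0.23 for both in male 10 °C replicate 2. In the 58 members of 1000 to under 2000 bp, r between male 10 °C replicate 1 and the library labelled female 10 °C replicate 3 was 0.90, and the ratio of the 90th to the 10th percentile in the former was 5.39. Length thus moved with the level in members and in other genes, and its part in the spread of the members was not tested.

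The gene models of the members were somewhat smaller than those of other expressed multi-exon genes. Over the members the median was 5 exons (2 to 49), 1258.5 bp of exon (388 to 10406 bp) and a gene length of 3053 bp. Over the 3469 other multi-exon genes of at least 20 CPM in male 25 °C larvae it was 6 exons, 1693 bp of exon and a gene length of 5443 bp. A gene model of 2 exons was found for 23 members (17.2%) and for 9.63% of the others, and 10 or more exons for 18 members (13.4%) and 27.7% of the others. The strands were used equally, with 67 members on each. The level in males chose both sets, so these shares are descriptions.

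How many reads joined annotated exons could be read from the deposited read classes, which the rule did not use. Of the reads of the median member in male 25 °C larvae, 55.9% spanned an exon-exon junction, against 33.2% for the median of the other genes, and more than 50% did so in 74 members (55.2%; others 38.4%). In some members nearly all reads spanned a junction. In LOC105398752 (NW_011952036, 1531115 to 1536460, plus strand, 7 exons), at 31.5, 37.0 and 37.8 CPM in male 25 °C libraries, 99.8% of reads spanned a junction. In all, 6 members passed 95%, with 3 to 9 exons each. The members had less exon sequence than the other genes (median 1258.5 against 1693 bp). The part of exon length in these shares was not tested, and a share does not measure how complete splicing was.

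Other members had hardly any junction reads, although their gene models hold several exons. The share was below 5% in 29 members (21.6%), close to the 20.1% among other genes. Of these 29, 23 had mostly exonic reads. LOC105388767, with 7 exons and rank 3 by CPM, had 2 junction reads in all male 25 °C libraries. LOC105385519 has the most exons of any member, 49 (NW_011952137, 303120 to 375791, plus strand), and none of its male 25 °C reads spanned a junction. The next in exon number, LOC105386508 with 41 exons (NW_011952162, 504203 to 522807, plus strand), had 53.4% junction reads. For LOC105383512, second by CPM, the share was 3.18%. A gene model with several exons therefore did not mean that spliced reads were counted.

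**Figure D4:**
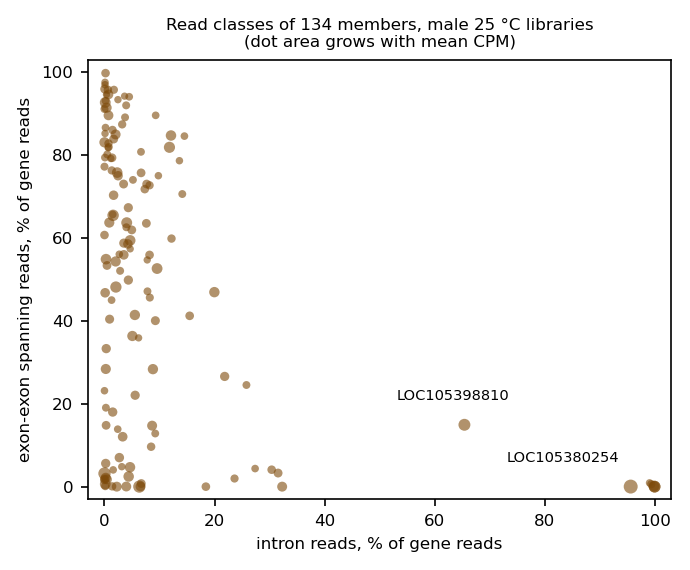
Share of gene reads in introns (horizontal, percent) and share spanning an exon-exon junction (vertical, percent) for each member, from the summed male 25 °C libraries; dot area grows with mean CPM. Most members sit at a low intron share with any junction share, and 7 lie beyond 50% intron reads, of which LOC105398810 has 14.9% junction reads and the other 6 hardly any.

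In 7 members more than 50% of the male 25 °C reads were intronic, which is 5.22% of members and 5.82% of the other genes. They weighed heavily in the sum: 22.1%, 20.6% and 25.1% of all member reads in the male 25 °C libraries were intronic, against 4.53%, 4.14% and 4.45% over all genes. Without the 7 the shares were 5.32%, 4.04% and 5.30%. For the median member the intron share was 3.39%, against 2.48% for the other genes. The members with the lowest intron share, LOC105383512 and LOC105397771 among them, had 0% intronic reads.

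In LOC105380254 the large difference between the sexes at 25 °C was one of intron reads. Its exon reads came to 43.1, 38.2 and 38.9 CPM in the male and 31.7, 34.3 and 38.4 CPM in the female 25 °C libraries, values that overlap. Its intron reads came to 715, 736 and 1111 CPM in males and to 8.57, 8.97 and 4.59 CPM in females. At 10 °C the exon reads were 59.3, 79.5 and 70.9 CPM in the libraries labelled female and 32.9, 53.5 and 89.1 CPM in those labelled male, which overlap. The intron reads there followed the other members, with 6.34, 27.6 and 134 CPM in the libraries labelled female and 59.2, 447 and 6.31 CPM in those labelled male. The libraries that held the members at low levels thus kept the exon reads of this gene and had few of its intron reads. No other annotated gene overlaps it in the deposited positions, and what these intron reads are transcribed from was not tested.

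**Figure D5:**
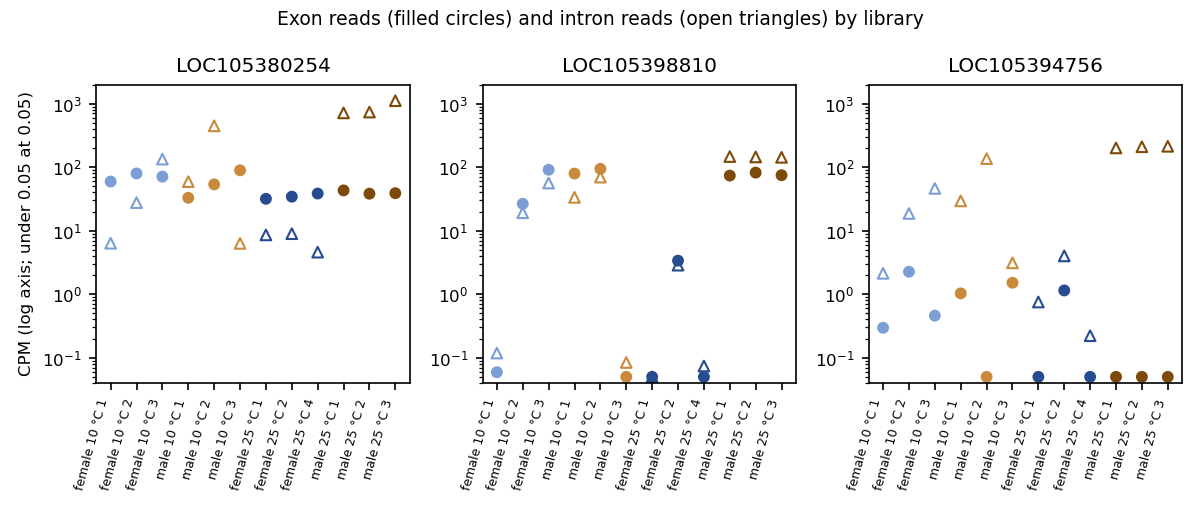
Exon and intron reads (CPM, log axis) of 3 of the 7 members with more than 50% intronic reads, in each library as labelled (filled circles exon reads, open triangles intron reads, values under 0.05 CPM drawn at 0.05). For LOC105380254 the exon reads lie between 31.7 and 89.1 CPM in all 12 libraries while the intron reads run from 4.59 to 1111 CPM.

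LOC105398810 (NW_011952011, 2839900 to 2845049, plus strand, 6 exons) differed from the other intron-rich members in that its exon reads moved as well. It had 73.7, 82.0 and 74.7 CPM of exon reads and 147, 145 and 143 CPM of intron reads in male 25 °C libraries. In female 25 °C libraries the exon reads were 0, 3.37 and 0 CPM and the intron reads 0, 2.86 and 0.074 CPM. Both classes were low in females. LOC105394756 and LOC105392012 had 0 exon reads in every male 25 °C library. LOC105392012 overlaps 3 annotated genes on the opposite strand, and whether the counting used strand is not given, so its reads cannot be assigned with certainty. LOC105382550 (99.9% intronic), LOC105390071 (99.4%) and LOC105389897 (99.1%) make up the 7. When the rule was applied to exon reads it gave 130 genes, of which 127 were members, and the 6 intron-rich members other than LOC105398810 were among the 7 that dropped out.

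Uncertain assignment touched a minority of members. More than 95% of reads mapped uniquely in 112 members, and fewer than 50% did so in 5 (3.73%, against 3.66% of the other genes). Another annotated gene overlapped 17 members, on the opposite strand for 12 of them, and 4 members lie wholly inside another gene. On uniquely mapped reads the rule gave 136 genes, of which 128 were members.

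The members were spread over many scaffolds. They lie on 106 of 1428 scaffolds, 85 of which hold 1 member and 18 hold 2. The most were on NW_011952011, with 6 of its 144 multi-exon genes (4.17%), followed by NW_011952073 with 4 of 45 (8.89%) and NW_011952077 with 3 of 46 (6.52%). These shares were not tested. In the other assembly LOC105398477 and LOC105398792 of NW_011952011 were on different sequences, while its other consecutive members each shared a sequence. LOC105382769 and LOC105382746 of NW_011952077 were on different sequences too. The deposited tables place genes on scaffolds alone, and chromosome names and positions are not given here.

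On NW_011952011 the 6 members lay in 3 places. LOC105398458 (1978409 to 1981963, plus strand) and LOC105398477 (1993804 to 1995090, minus strand) are 11840 bp apart with 2 genes between them, and averaged 21.6 ± 6.27 and 41.5 ± 6.77 CPM (SD, n = 3) in male 25 °C larvae. LOC105398792 (2835483 to 2837197, minus strand) and LOC105398810 are separated by 1 gene, the single-exon LOC105398802, which met the rest of the rule with 79.7 CPM in male and 0.51 CPM in female 25 °C larvae. Together they form a run of 3 neighbouring genes with a male level of 76.7 CPM or more and a female level of 2.10 CPM or less. The gene after this run, LOC105398828, stood at 12.2 CPM in males and 15.1 CPM in females, and the gene before it, LOC105398770, at 2.90 and 3.82 CPM. LOC105380495 (3080348 to 3082269, plus strand) and LOC105380075 (3242756 to 3244596, plus strand) lie further on, 160486 bp apart.

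Direct neighbours among the members formed 3 pairs. LOC105384471 (887068 to 888657, minus strand) and LOC105384472 (889181 to 891188, plus strand) on NW_011952111 point away from each other with 523 bp between them. LOC105384471 had 42.7, 42.7 and 32.6 CPM in male 25 °C libraries, and 0, 2.06 and 10.1 CPM in the libraries labelled female 10 °C with 6.14, 19.1 and 0.084 CPM in those labelled male. LOC105384472 had 53.3, 62.4 and 51.4 CPM at 25 °C in males, and 0, 1.87 and 9.95 CPM in the libraries labelled female 10 °C with 5.95, 27.7 and 0 CPM in those labelled male. Both were low in male 10 °C replicate 1, at 15.6% and 10.7% of their male 25 °C means, and at 48.5% and 49.8% in replicate 2.

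LOC105380040 (741866 to 747540) and LOC105380091 (747829 to 760605) on NW_011952038 are both on the plus strand with 288 bp between them. They averaged 32.8 ± 2.41 and 35.5 ± 4.92 CPM in male 25 °C larvae and stood at 48.6% and 99.4% of that in male 10 °C replicate 1. LOC105382734 (462563 to 478288, 34 exons) and LOC105382769 (480545 to 483276, 5 exons) on NW_011952077 are both on the minus strand, 2256 bp apart. They averaged 85.5 ± 2.07 and 102 ± 10.6 CPM and stood at 164% and 56.6% in male 10 °C replicate 1. In these pairs, unlike the first, the neighbours took different levels in that library. In the gene order of the other assembly the members of the first and the second pair were again next to each other, and 2 genes lay between those of the third. Within 50000 bp of each other were 9 pairs of members, and 6 neighbouring pairs were formed by a member and a single-exon gene of the same rule.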

How the data were processed

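Per the labels' protocols, RNA of whole larvae was poly(A)-selected, made into random-primed libraries and sequenced as paired reads. The aligner, counter, genome build and annotation were not given in the sources used here. Tables as deposited hold, per the file headers, read counts per gene (total, unique, exon, intron and exon-exon reads) and TPM values. TPM as deposited by the authors was recomputed from exon reads and exon length, and matched.

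CPM was total gene reads over their column sum. Exon and intron counts summed to the total in 100% of entries. Levels are means ± SD over 3 libraries. Male against female at 10 °C was tested with edgeR 4.0.16 in R 4.3.3 (TMM, minimum count 10, minimum total 15, robust quasi-likelihood fit of all 12 libraries with 4 group means, Benjamini-Hochberg adjustment over all genes tested). DESeq2 1.42.0 was an alternative. The SE of a log2 difference is that difference divided by the square root of the F statistic, an approximation. Each library is its own pool of 8 larvae, so p-values measure spread among pools. The edgeR fit was run on simulated counts in which every library followed its group, unlike the members at 10 °C. That run therefore does not bear on the absence of calls at 10 °C. None of the 66 pairs of libraries matched within counting error.

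Members and lists were chosen with earlier results of these data known. Genes named are the 12 highest by CPM, those nearest the limits, the 4 highest in each low 10 °C library, neighbours, the members of the fullest scaffold and the extremes of intron share and exon number. Others were named after their values were seen. Alternatives were other read classes, scalings, filters, designs and leaving out libraries. A gene table of assembly ilPluXylo3.1 served only for names, gene order and whether members share a sequence. Of the marker lists it named 3 genes, a storage protein gene (PxSP1), a trypsin (Tryp_SPc1) and an aminopeptidase N (Pxapn-a). In CPM over all libraries Tryp_SPc1 ran from 1251 to 9232 and Pxapn-a from 20.6 to 105. Sequences are not used here.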

Additional observations from a re-analysis of the deposited data

How the results depend on the processing

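Of 104 alternative values, 97 equalled the main value or moved by less than the limit set for them (1.5 times for a count). Many of them set 0 genes or members called against 0, and no member can be called where no gene is. For member levels at 10 °C the limit was the SD of library medians within a group. A fall from 20.9% to 9.52% with TMM factors in female-labelled 10 °C replicate 2 was within it. The tally is therefore a weak measure of stability. For the members' median log2 difference at 10 °C the limit was 3.78, the SD of library medians within groups. That exceeds the main value of 1.02, so the tally says nothing about the stability of this difference. The count of members was 127 to 140 when 1 library of 25 °C was left out. At 10 °C the count of genes called, 0, was the same in every alternative run, and the members' median log2 difference ranged from 0.26 to 2.59 when 1 library was left out. With a replicate block it was 1.503 with 0 genes called. Of 15 same-numbered pairs of libraries, 3 had a correlation of deviations above 0.1 (-0.74 to 0.57). The deviations were taken from labelled group means, and the 10 °C libraries did not sort by label in the members. These correlations therefore cannot tell whether replicate numbers pair libraries. The intron share of member reads was 22.6% when reads were summed and 3.39% as the median over members, since 7 members hold most intron reads. The junction share was 37.5% when summed and 55.9% as that median. Neighbouring pairs numbered 3 when adjacency was required and 9 within 50000 bp. With TMM factors the members above their male 25 °C mean numbered 0, 5, 14 and 4 in female-labelled 10 °C replicates 2 and 3 and male-labelled replicates 1 and 2, against 3, 33, 32 and 9 by CPM. Depth limits the low libraries: at 10183278 to 30106219 reads, levels below 0.0996 to 0.295 CPM rest on fewer than 3 reads.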
